A study of Mus musculus with 16 samples.

Results

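The genes described here encode the AP-1 transcription factors and 3 close relatives: 4 of the FOS family (Fos, Fosb, Fosl1, Fosl2), 3 of the JUN family (Jun, Junb, Jund), Atf3, and the small MAF genes Maff and Mafk. They were taken by symbol from the gene count table, in which 10 of 52997 rows carry these names. All 10 passed the filter on low counts, which left 13949 genes for testing. The RNA came from muscle mesenchymal stromal cells, the connective tissue cells that lie between muscle fibres, which were sorted from hindlimb muscle of C57BL/6 mice aged 8 weeks. Mice were injected intraperitoneally with CGRP (calcitonin gene-related peptide, a neuropeptide of sensory nerve endings) or with PBS (phosphate-buffered saline), and cells were isolated 4 h or 8 h afterwards. The 4 groups (PBS at 4 h, CGRP at 4 h, PBS at 8 h and CGRP at 8 h) held 4 biological replicates each, and no genetic change is given for any group. Each library was made from 1000 double-sorted cells. The sources used here do not give the sorting markers, the CGRP dose, or whether a replicate was 1 mouse or a pool. If replicates share a source, the p-values measure only the spread between these samples.

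AP-1 is a dimer of basic leucine zipper proteins. FOS proteins need a JUN partner to bind DNA, whereas JUN proteins can also pair with each other. The site that the dimers bind was searched for here as TGANTCA, in which N is any base. ATF3 pairs with JUN proteins and binds the related cyclic AMP response element, and the small MAF proteins lack an activation domain and partner NRF2 or BACH proteins at antioxidant response elements. Fos, Jun and Atf3 belong to the immediate early genes, whose transcripts rise within minutes of a stimulus and then decay, and they are also known to rise when cells are isolated from tissue. The CGRP receptor raises cyclic AMP in the cells that carry it.

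The stretches of 120 bases upstream of the start sites of Fos, Fosb, Jun, Atf3 and Mafk are shown because these 5 genes were lower at 8 h than at 4 h after CGRP. They are from RefSeq on build GRCm38.p6, read 5′ to 3′ on the strand of the gene, and capitals mark motif matches.
Fos: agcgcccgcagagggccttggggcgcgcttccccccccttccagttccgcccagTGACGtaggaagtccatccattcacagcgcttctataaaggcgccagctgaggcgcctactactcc
Fosb: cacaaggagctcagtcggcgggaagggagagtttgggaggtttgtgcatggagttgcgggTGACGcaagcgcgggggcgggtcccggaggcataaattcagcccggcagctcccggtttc
Jun: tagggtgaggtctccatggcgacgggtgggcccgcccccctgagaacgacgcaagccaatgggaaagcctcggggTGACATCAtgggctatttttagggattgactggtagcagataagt
Atf3: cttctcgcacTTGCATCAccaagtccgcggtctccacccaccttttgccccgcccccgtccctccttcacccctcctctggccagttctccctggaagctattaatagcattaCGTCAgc
Mafk: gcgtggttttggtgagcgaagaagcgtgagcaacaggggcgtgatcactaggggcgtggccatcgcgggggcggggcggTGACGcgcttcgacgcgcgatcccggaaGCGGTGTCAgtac
The windows lie at chr12:85473770-85473889 (forward strand) for Fos, chr7:19310046-19310165 (reverse) for Fosb, chr4:95052223-95052342 (reverse) for Jun, chr1:191183334-191183453 (reverse) for Atf3 and chr5:139791416-139791535 (forward) for Mafk. Of the 10 genes, 9 matched an entry of the promoter table, with 11 promoters among them, and Fosl1 had none. On both strands of the 250 bases before the start, the core TGACG of the cyclic AMP response element was found in a promoter of 6 genes (Fos, Fosb, Junb, Atf3, Maff and Mafk), and in 17.8% of the 32851 promoters of the table. The Fos promoter held it at -66 from the start and again at -129, outside the stretch shown, the Fosb promoter at -60, the Junb promoter at -106, the Mafk promoter at -41, and the Atf3 promoter at -7 on the other strand. The whole element TGACGTCA, present in 1.55% of promoters, was found for the second of 3 Maff promoters only, at -29. The AP-1 site, searched as TGANTCA (6.75% of promoters), and the CArG box, the site of serum response factor (1.47%), were found in none of the 11. This holds for the 250 bases only. Sequence further upstream was not searched, so sites there cannot be judged. The Jun promoter held TGACATCA at -45, a match to TGANNTCA. This form was added to the search after the sequences had been seen, covers TGACGTCA and was present in 11.9% of promoters. It also matched the third Maff promoter, as TGACATCA at -45, the Jund promoter, as TGAAATCA at -61, and the second Maff promoter at -29. Neither Maff nor Jund was called by edgeR in any comparison. The Atf3 promoter held TTGCATCA at -110, the reverse of the ATF and C/EBP composite TGATGCAA (0.791%). The antioxidant core TGACNNNGC (10.2%) matched the Mafk promoter at -13 on the other strand, in the letters GCGGTGTCA, and the first Maff promoter at -112. Of the stretches shown, 23 bases for Mafk, 7 for Atf3 and 6 for Fosb lay in exons annotated by GENCODE M21. The Mafk match at -13 lay within those 23 bases. These are matches of letters, and no binding was measured.

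Library totals ran from 6373713 to 10011920 counts. In 12 libraries 21138 to 22341 genes had a read, and in the other 4 (replicate 4 after PBS at 4 h, replicate 3 after CGRP at 4 h, and replicates 1 and 4 after PBS at 8 h) 23294 to 25579. Stromal markers such as Pdgfra, Dcn and Col3a1 were present in every library, and the 11 of the list summed to between 148178 and 199080 CPM, the scaled share of a library's counts, lower after CGRP than after PBS at each time with no overlap. Gsn alone was at 87603 to 126724 CPM. By edgeR 5 of the 11 fell and 2 rose at 4 h, and 3 fell and 2 rose at 8 h. Of all genes tested 8.37% fell and 7.84% rose at 4 h, and 3.67% fell and 5% rose at 8 h. Pdgfra, Lum and Dcn fell at both times, while Pdpn rose (log2 fold change 1.14 at 4 h, adjusted p = 0.00242, and 1.36 at 8 h, adjusted p = 0.00205), as did Ly6a (0.26, adjusted p = 0.0194, and 0.35, adjusted p = 0.00509). The 8 endothelial markers summed to between 79.2 and 144 CPM, nearly all from Tek. In the CGRP libraries at 8 h that sum was 79.2 to 105.6 CPM, below the 109 to 131 CPM of PBS at 8 h. The sum of 10 myofibre markers was also lower there, at 110.1 to 154 CPM against 158 to 245 CPM after PBS. Acta1 was the largest part of it, with means of 127 CPM after PBS and 73.7 CPM after CGRP at 8 h. By edgeR 1 of the 7 tested fell at 8 h, and the means of Tnnt3 and Tnnc2 were higher after CGRP. The other sums overlapped between CGRP and PBS at both times, with ranges of 9.58 to 24.4 CPM for 10 myeloid markers, 4.37 to 9.72 CPM for 10 lymphocyte markers, 40.8 to 80.7 CPM for 6 satellite cell markers, 11.2 to 40.0 CPM for 8 pericyte markers and 7.31 to 17.7 CPM for 6 Schwann cell markers. Single genes of these lists fell at 4 h, the comparison in which Atf3 and Mafk rose: the smooth muscle gene Myh11 went from 2.28 ± 0.869 to 0.373 ± 0.363 CPM (-2.60 on the log2 scale, adjusted p = 0.0111) and the Schwann cell gene S100b from 7.99 ± 2.28 to 4.47 ± 1.17 CPM (-0.83, adjusted p = 0.0352). The myofibre gene Acta1 fell at 8 h (-0.78, adjusted p = 0.0204). The defining satellite cell gene Myf5 was at 0 in all libraries. S100a9, Cd3d, Nkg7 and Sox10 were at 0 in both CGRP groups, with means of 0 to 0.0583 CPM in the PBS groups. Pax7 was at 0 in the CGRP group at 4 h (PBS mean 0.133 CPM). Cd8a and Cldn5 were at 0 in the CGRP group at 8 h (PBS means 0.0336 and 0.137 CPM), and Ms4a1 in 1 group at each time. These genes were thus at or near 0 after PBS as well. The part of these differences in the results below was not tested.

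The AP-1 genes formed no single block in their response. At 4 h, CGRP raised 2 of the 10 genes, Atf3 and Mafk, beside 16.2% of all tested genes called in either direction 7.84% called as raised and 8.37% as lowered, so the count is near the background. At 8 h 1 of 10 rose, Fosl1, beside 8.67% called in either direction 5% as raised and 3.67% as lowered, again near the background. By edgeR no AP-1 gene fell at either time. At an unadjusted p under 0.05 there were 3 genes at 4 h, all higher (Fosl1, Atf3 and Mafk), and 2 at 8 h (Fosl1, higher, and Atf3, lower). Between 4 h and 8 h after CGRP, 5 of the 10 fell (Fos, Fosb, Jun, Atf3 and Mafk), beside 3.05% of all genes called as lower, 4.2% as higher and 7.26% in either direction. After PBS none of the 10 was called over the same interval, beside 0.516% of all genes (0.265% higher, 0.251% lower), by edgeR. At an unadjusted p under 0.05 there were 4 of 10 (Fos, Fosl1, Jun and Atf3, all lower at 8 h), DESeq2 called 2 (Fos and Jun) and limma voom none. By edgeR the change with time after CGRP was called as different from that after PBS for 1 of the 10, Atf3. That comparison called 1.12% of all genes in either direction and 0.423% as lower. The median log2 fold change of the 10 genes was 0.28 at 4 h, -0.19 at 8 h, -0.29 with time after PBS and -0.44 with time after CGRP. Over all genes these medians lay between -0.02 and -0.00. In bulk libraries, fewer cells with a transcript and less RNA per cell cannot be told apart. The CGRP comparisons at 4 h and 8 h share no library, but the comparisons between times use the same groups as both.

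**Figure D1:**
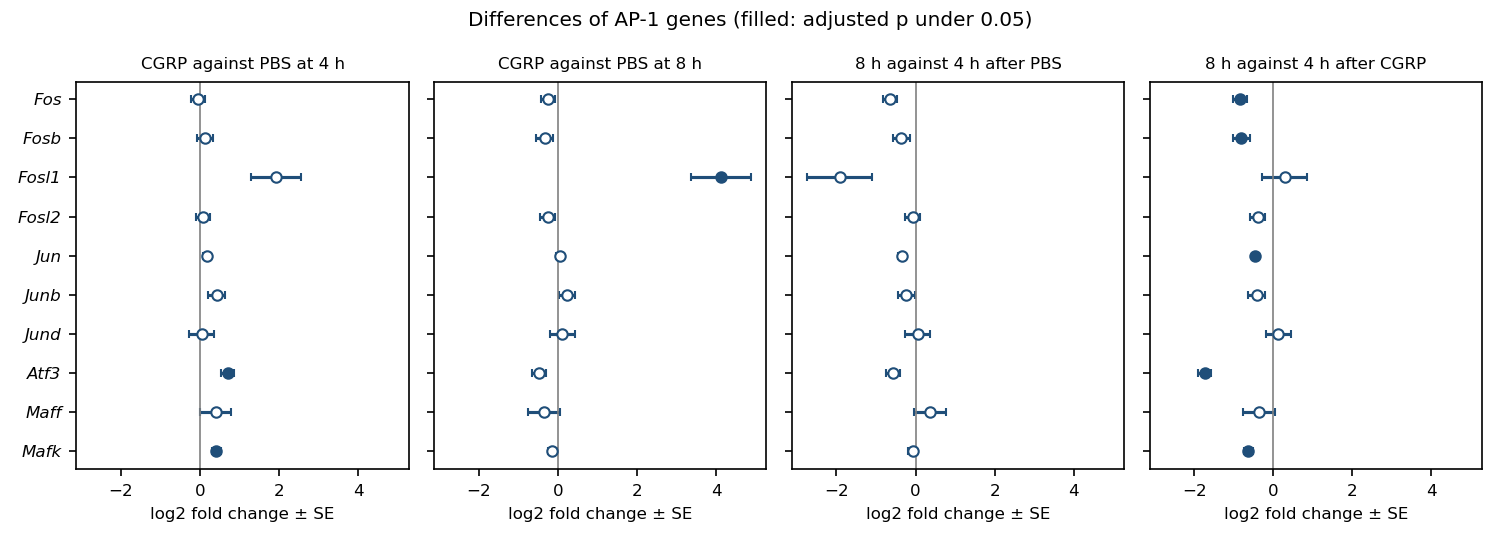
Log2 fold change (horizontal axis) with its standard error for the 10 AP-1 genes in 4 comparisons, from the model of all 16 libraries. Filled points have an adjusted p under 0.05: Atf3 and Mafk at 4 h, Fosl1 at 8 h, and Fos, Fosb, Jun, Atf3 and Mafk, all to the left of 0, between times after CGRP.

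Levels differed widely among the 10 genes. Per kb of exon, Jun was the highest in all 4 groups, at 232 ± 25.6 CPM per kb (SD, n = 4) after PBS at 4 h and 184 ± 18.8 after PBS at 8 h. Fos and Junb held the next places, at 175 ± 44.9 and 122 ± 13.2 CPM per kb after PBS at 4 h. In the CGRP libraries at 8 h Junb stood above Fos by its mean, with 122 ± 46.0 against 94.4 ± 22.3 CPM per kb, and the ranges of Jun, Junb and Fos overlapped from each to the next. The remaining 7 genes stayed under 23 CPM per kb in every library, and Mafk led them in every group but CGRP at 8 h. Fosl1 changed place most: it was the last of the 10 after PBS at 8 h, with 0.812 ± 0.203 CPM per kb, and the fourth after CGRP at 8 h, with 14.4 ± 8.77. Its range there overlapped that of Mafk, the next gene, at 11.7 ± 1.5 CPM per kb. These levels divide by all exon bases, and 1163 of the 2033 of Fosl1 and 877 of those of Jund are shared with an antisense gene. How the authors counted reads there is not stated in the labels. Divided by the unshared bases alone, as if those reads were not counted (a choice made after seeing the data), Fosl1 was at 1.90 ± 0.473 CPM per kb after PBS at 8 h, the ninth of the 10, and at 33.6 ± 20.5 after CGRP at 8 h, still the fourth. It then stood above Mafk after CGRP at 4 h as well, with 27.6 ± 17.8 against 18.9 ± 1.91 CPM per kb.

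**Figure D2:**
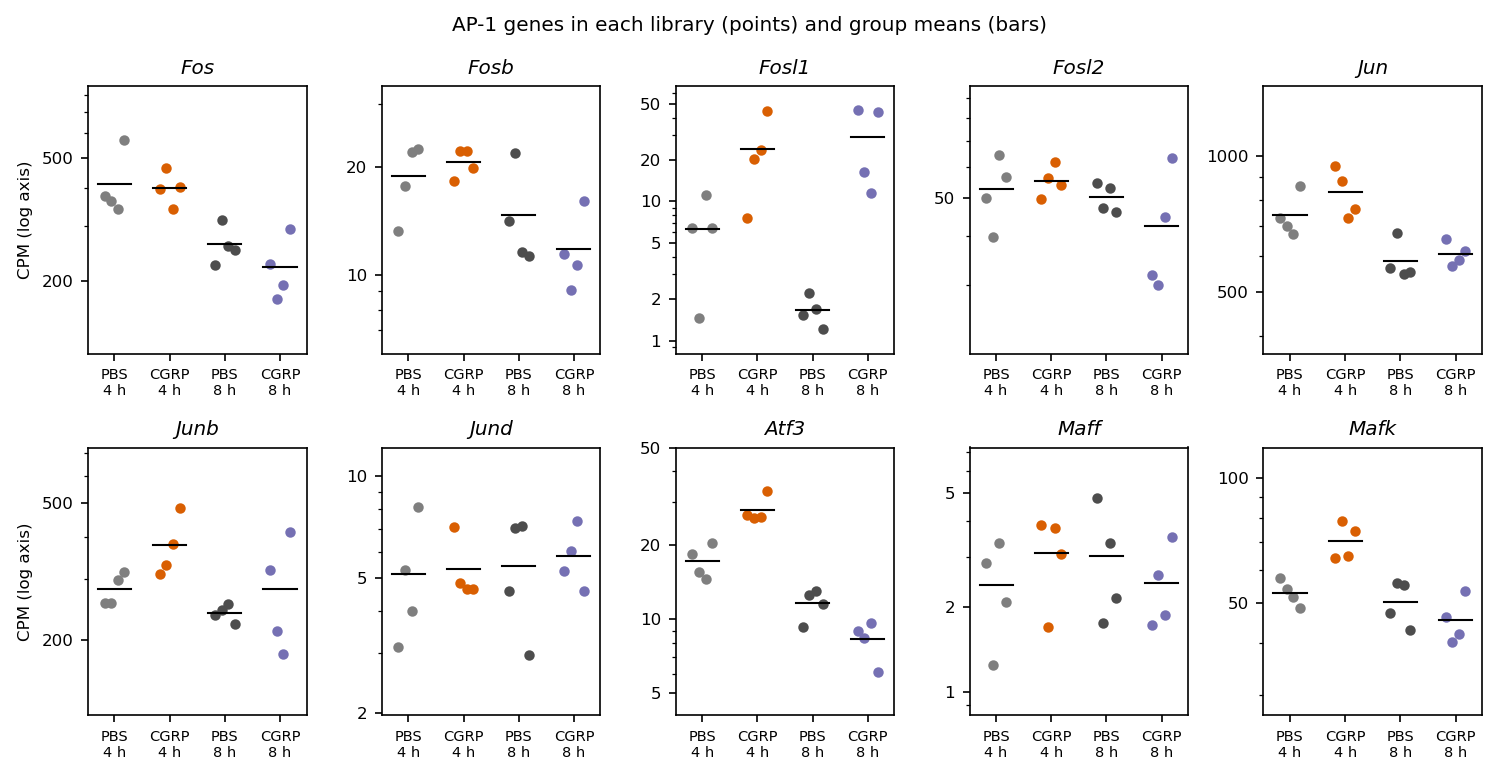
Level of each AP-1 gene in CPM (log axis) in the 4 libraries of each group, with the group mean as a bar. Fosl1 after PBS at 8 h lies between 1.21 and 2.20 CPM and after CGRP at 8 h between 11.6 and 45.1 CPM, and Atf3 after CGRP at 4 h lies above all of its other libraries.

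Fosl1, which encodes FRA-1, a FOS protein without the transactivation domain of FOS, gave the widest difference between CGRP and PBS among the 10 genes. The gene lies at chr19:5447547-5455946 on the forward strand of GRCm38, with 4 exons. After PBS at 8 h its replicates 1 to 4 were at 1.53, 2.20, 1.67 and 1.21 CPM, or 12, 15, 11 and 9 counts. After CGRP at 8 h they were at 45.1, 16.2, 11.6 and 44.0 CPM, or 446, 150, 111 and 288 counts. Every CGRP library stood above every PBS library, and replicates 1 and 4 after CGRP were far above replicates 2 and 3. The fitted log2 fold change at 8 h was 4.13 ± 0.76 (edgeR, adjusted p = 0.00600), a fold of 17.6. It remained called under 25 other settings of the fit, but without the 4 libraries with most genes detected, which leaves 2 PBS libraries at 8 h, it was 3.90 with an adjusted p of 0.173, where 191 genes were called in place of 1210.

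At 4 h the Fosl1 libraries were at 6.41, 1.46, 11.1 and 6.46 CPM after PBS and at 7.62, 20.2, 23.2 and 44.8 CPM after CGRP. The groups overlapped through replicate 1 after CGRP and replicate 3 after PBS. The log2 fold change was 1.92 ± 0.63 with an adjusted p of 0.0558 (edgeR), and the gene was called at 0.0176 by DESeq2. Without replicate 1 after CGRP at 4 h the adjusted p was 0.0286, and without replicate 3 after PBS at 4 h or replicate 3 after CGRP at 8 h it was 0.0464. The effect at 8 h exceeded that at 4 h by 2.21 ± 1.01 on the log2 scale, which was not called (adjusted p = 0.340, edgeR). From 4 h to 8 h, Fosl1 did not pass the test after PBS (-1.92 ± 0.83, adjusted p = 0.344) or after CGRP (0.29 ± 0.57, adjusted p = 0.845).

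The exons of Fosl1 share 1163 of their 2033 bases with Ccdc85b on the opposite strand, and the libraries do not mark strand, so reads from the shared stretch cannot be assigned to one gene. Ccdc85b, a gene for a coiled-coil protein, had a mean of 33.1 ± 6.03 CPM after PBS at 8 h and 28.8 ± 4.71 CPM after CGRP at 8 h. It did not pass the test at 8 h (log2 fold change -0.19 ± 0.41, adjusted p = 0.844) or at 4 h (0.43 ± 0.42, adjusted p = 0.564).

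Fos, the founding member of the family, was not called between CGRP and PBS at either time. At 4 h its libraries were at 376, 361, 340.2 and 568 CPM after PBS and 395, 463, 342 and 400.4 CPM after CGRP. The PBS library of replicate 4 stood above all others and the ranges overlapped. The log2 fold change was -0.04 ± 0.18 at 4 h (adjusted p = 0.916) and -0.24 ± 0.18 at 8 h (adjusted p = 0.470, edgeR), and the sign at 4 h turned with scaling by total counts alone (0.02). At 8 h the libraries were at 225, 314, 259 and 251 CPM after PBS and at 226, 174, 193 and 294 CPM after CGRP. All 8 libraries at 8 h were below all 8 at 4 h. After CGRP Fos was lower at 8 h by a log2 fold change of -0.85 ± 0.18 (edgeR, adjusted p = 0.00810). After PBS the value was -0.65 ± 0.18, with an adjusted p of 0.117, and it was called with no filter on low counts and by DESeq2. The difference between these changes was not called (-0.20 ± 0.25, adjusted p = 0.779).

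Fosb, a close relative of Fos with a similar early response, lies at chr7:19302696-19310051. At 4 h it was at 13.3 to 22.4 CPM after PBS and at 18.3 to 22.1 CPM after CGRP. At 8 h it was at 14.1, 21.8, 11.5 and 11.3 CPM after PBS and 11.4, 9.06, 10.6 and 16.1 CPM after CGRP. Every CGRP library at 8 h was below every CGRP library at 4 h, while the PBS libraries of the 2 times overlapped. The fall after CGRP had a log2 fold change of -0.81 ± 0.21 (edgeR, adjusted p = 0.0212). It was lost, at adjusted p of 0.0556 to 0.0864, without replicate 2 after CGRP at 4 h, replicate 2 after CGRP at 8 h or replicate 3 after CGRP at 8 h, and at 0.0550 without the 4 libraries with most genes detected. After PBS the log2 fold change with time was -0.36 ± 0.21, which was not called. The difference between the changes after CGRP and after PBS was not called either (-0.453 ± 0.301, edgeR, adjusted p = 0.536). Between CGRP and PBS, Fosb differed by 0.12 ± 0.21 at 4 h and -0.33 ± 0.22 at 8 h, neither called.

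Fosl2, which encodes FRA-2, was close to level across the groups, at 52.8 ± 10.4 CPM after PBS at 4 h, 55.4 ± 4.97 after CGRP at 4 h, 50.2 ± 4.34 after PBS at 8 h and 42.4 ± 15.3 after CGRP at 8 h. The last group held both the lowest and one of the highest libraries, from 30.1 CPM in replicate 2 to 63.2 CPM in replicate 4. No comparison called the gene. Its log2 fold change with time after CGRP was -0.39 ± 0.18 (adjusted p = 0.239), and without replicate 4 after CGRP at 8 h it was called at 0.0125.

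As shares of the FOS family per kb of exon, Fos made up 93.6% ± 2.31 after PBS at 4 h, 89.1% ± 3.91 after CGRP at 4 h, 93.0% ± 0.889 after PBS at 8 h and 82.7% ± 4.40 after CGRP at 8 h. The share of Fosl1 was 1.74% ± 1.25, 6.13% ± 3.77, 0.673% ± 0.104 and 11.8% ± 5.24 in the same order. At 8 h the Fosl1 share ran from 6.04% to 17.96% after CGRP and from 0.523% to 0.757% after PBS, so the ranges did not meet. Over the 870 unshared bases of Fosl1 its shares were 3.94% ± 2.78, 13.0% ± 7.46, 1.56% ± 0.238 and 23.4% ± 9.14, and at 8 h the ranges were still apart, at 13.1% to 33.8% after CGRP and 1.21% to 1.75% after PBS. Over all exon bases Fosb stayed between 1.65% and 1.94% and Fosl2 between 3.01% and 4.41% by group mean. The shares describe transcripts and are made from the same counts as the tests above.

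**Figure D3:**
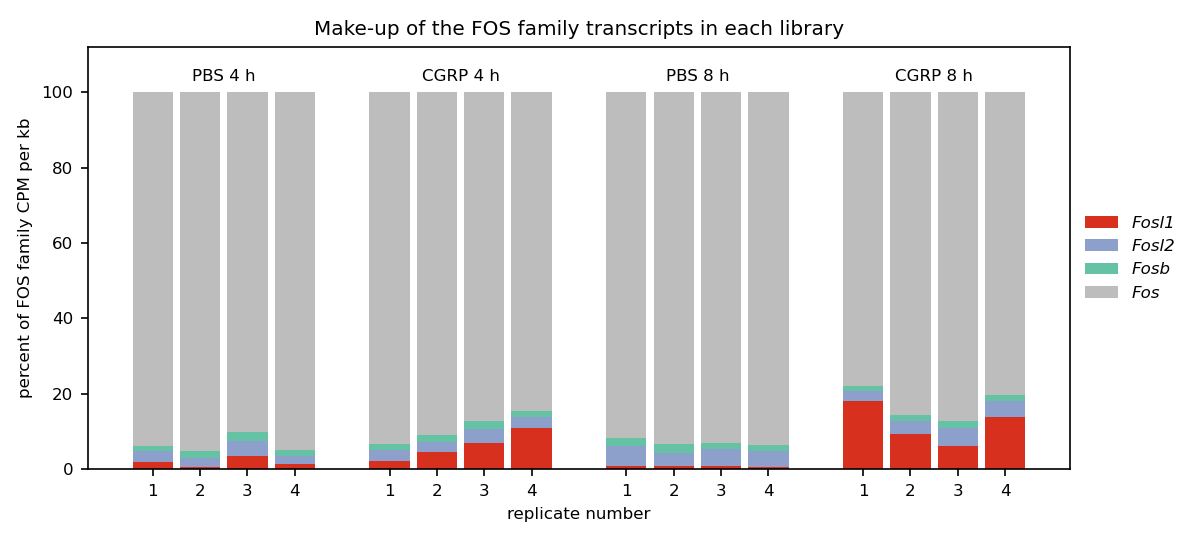
Share of each FOS family gene in the summed FOS family CPM per kb of exon (percent, from 0 to 100), 1 bar for each library. Fosl1, at the bottom of each bar, takes between 6.04% and 17.96% in the CGRP libraries at 8 h and under 1% in the PBS libraries at 8 h.

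Jun, the main partner of FOS proteins, lies at chr4:95049034-95052222 in 1 exon. After PBS it was at 729, 702, 674 and 859 CPM at 4 h and 567, 675, 549 and 553 CPM at 8 h. After CGRP it was at 953, 882, 730.1 and 765 CPM at 4 h and 655, 570.4, 589 and 618 CPM at 8 h. In the CGRP groups every library at 8 h was below every library at 4 h, whereas in the PBS groups replicate 2 at 8 h just exceeded replicate 3 at 4 h. The fall after CGRP was small and even, with a log2 fold change of -0.45 ± 0.10 (edgeR, adjusted p = 0.00428). After PBS it was -0.34 ± 0.10 (adjusted p = 0.110), called with no filter on low counts and by DESeq2. The difference between these changes was not called (-0.11 ± 0.13, edgeR, adjusted p = 0.759). CGRP against PBS gave 0.17 ± 0.10 at 4 h (adjusted p = 0.255) and 0.05 ± 0.10 at 8 h (adjusted p = 0.806).

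Junb, which can restrain JUN and pairs with FOS proteins in growth arrest and cytokine responses, was at 256, 256, 299.7 and 315 CPM after PBS at 4 h and at 312, 331, 380.5 and 484 CPM after CGRP at 4 h. Only replicate 4 after PBS reached into the CGRP range. The log2 fold change was 0.42 ± 0.21 with an adjusted p of 0.212 (edgeR), and the gene was called, at 0.0447, when only the groups compared were fitted. At 8 h it was at 237, 244, 255 and 223 CPM after PBS and at 319, 213, 182 and 414 CPM after CGRP. Replicates 1 and 4 after CGRP were above every PBS library and replicates 2 and 3 below every one, and the log2 fold change of 0.23 ± 0.21 was not called (adjusted p = 0.586). These are the same 2 libraries in which Fosl1 was highest. With time after CGRP the value was -0.42 ± 0.21 (adjusted p = 0.295), and it was called at 0.0398 without replicate 4 after CGRP at 8 h.

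Jund, usually the steadily expressed member of the family, had few reads here, with group means of 5.14 to 5.82 CPM, and no comparison called it. Its log2 fold changes lay between 0.04 and 0.13, and the sign turned with single libraries left out or with upper-quartile scaling. The antisense gene Gm11175, which overlaps 877 of the bases of Jund, had no read counted to it in any library. The libraries do not mark strand, so this does not show that Gm11175 is silent. Whether reads from the shared bases were left out of the Jund counts is not stated and was not tested. Of the JUN family per kb of all exon bases, Jun made up between 61.0% and 64.9%, Junb between 34.2% and 38.2% and Jund between 0.744% and 1.15% by group mean. Over unshared bases alone Jund made up between 1.44% and 2.22%. The exons of Jun share 232 bases with the antisense gene Junos, which had group means of 2.44 to 3.93 CPM, and those of Junb share 173 bases with Prdx2, which had 210.4 to 252 CPM and did not pass the test in any comparison.

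Atf3, a stress-induced gene whose protein often represses its targets, rose with CGRP at 4 h and was the only AP-1 gene whose CGRP effect was called by edgeR as different between the times. The gene lies at chr1:191170296-191218039 with 5 exons. At 4 h its libraries were at 18.4, 15.6, 14.6 and 20.4 CPM after PBS and at 26.6, 25.8, 26.1 and 33.4 CPM after CGRP. Every CGRP library was above every PBS library, replicate 4 after CGRP the highest. The log2 fold change was 0.70 ± 0.16, a fold of 1.62 (edgeR, adjusted p = 0.00528, with a range of 0.000669 to 0.0275 over the other settings). At 8 h the libraries were at 9.29, 12.6, 13.1 and 11.6 CPM after PBS and 8.997, 8.41, 9.69 and 6.12 CPM after CGRP. The CGRP libraries were then mostly lower, with replicate 1 after PBS inside their range, and the log2 fold change of -0.47 ± 0.18 was not called (adjusted p = 0.108).

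The CGRP effect on Atf3 at 8 h minus that at 4 h was -1.17 ± 0.24 on the log2 scale (edgeR, adjusted p = 0.0187). Of the 10 genes 1 was called in this comparison, beside 1.12% of all genes in either direction and 0.423% as lower. Between 4 h and 8 h after CGRP, Atf3 fell by 1.74 on the log2 scale (SE 0.17, edgeR, adjusted p = 8.19e-07), to a fold of 0.300, and it held place 12 of the 13949 genes by p. After PBS all libraries at 8 h were also below those at 4 h, with a log2 fold change of -0.57 ± 0.17 and an adjusted p of 0.124.

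Mafk, the small MAF gene with the most reads, also rose with CGRP at 4 h. It lies at chr5:139791513-139802653. Its libraries at 4 h were at 57.4, 54.1, 51.5 and 48.6 CPM after PBS and at 64.2, 78.7, 65.0 and 74.3 CPM after CGRP. The groups did not overlap, and the log2 fold change was 0.42 ± 0.11, a fold of 1.33 (edgeR, adjusted p = 0.0132, with a range of 0.00529 to 0.0470 over the other settings). At 8 h the libraries were at 47.2, 55.9, 55.1 and 43.1 CPM after PBS and 46.3, 40.3, 42.2 and 53.5 CPM after CGRP, which overlapped, and the log2 fold change was -0.15 ± 0.11 (adjusted p = 0.495). The difference of the effects was -0.56 ± 0.16 (adjusted p = 0.0848 by edgeR, 0.0386 by DESeq2). With time Mafk fell after CGRP by 0.63 on the log2 scale (SE 0.11, edgeR, adjusted p = 0.00107), and gave -0.07 ± 0.11 after PBS (adjusted p = 0.853). Its exons share 169 bases with Tmem184a, which was at or below 2.02 CPM in every library.

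Maff had group means of only 2.38 to 3.10 CPM, with libraries from 1.25 to 4.83 CPM. CGRP against PBS gave 0.39 ± 0.40 at 4 h (adjusted p = 0.580) and -0.34 ± 0.41 at 8 h (adjusted p = 0.690), neither of which passed the test.

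Some libraries were high or low in many AP-1 genes at once. Replicate 4 after CGRP at 8 h was the highest of its group in 6 of the 10 genes and replicate 2 the lowest in 5. After PBS at 4 h replicate 4 was the highest in 6, and after PBS at 8 h replicate 4 was the lowest in 6 and replicate 2 the highest in 5.

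The kinases and factors that act on AP-1 genes showed isolated changes. Of 23 tested MAP kinase pathway genes, 3 rose and 1 fell at 4 h, with a median log2 fold change of 0.10. Over all genes 16.2% were called at 4 h in either direction, so this count is near the background. For this list and those below, the shares over all genes were 7.84% raised and 8.37% lowered at 4 h. At 8 h they were 5% raised and 3.67% lowered. Mapk3, which encodes the kinase ERK1, fell by 0.85 on the log2 scale (SE 0.13, edgeR, adjusted p = 8.66e-05), from 47.2 ± 5.23 to 26.2 ± 4.65 CPM. Map2k1, a kinase that activates ERK1, rose by 0.28 ± 0.08 (adjusted p = 0.0162, lost with no filter on low counts), and Map2k7, a kinase of JNK, rose by 0.43 ± 0.15 with a call (adjusted p = 0.0474) that was lost without any 1 of 6 libraries: replicate 1 or 4 after CGRP at 4 h, or any of the 4 after PBS at 4 h. At 8 h 1 of the 23 rose and 1 fell. Both calls there, Rps6ka4 (0.33 ± 0.08, adjusted p = 0.0186) and Map3k5 (-0.49 ± 0.13, adjusted p = 0.0261), were lost without replicate 1 after CGRP or replicate 3 after PBS at 8 h, and the latter also without replicate 2 or 3 after CGRP or replicate 1 or 4 after PBS.

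Of 9 tested MAP kinase phosphatases, Dusp6, which inactivates ERK, fell at 4 h by 0.61 on the log2 scale (SE 0.17, adjusted p = 0.0177). That call was lost without replicate 1 or 4 after CGRP or replicate 1 or 2 after PBS at 4 h. At 8 h Dusp10, a phosphatase of p38 and JNK, was the 1 that rose (0.91 ± 0.25, adjusted p = 0.0246), lost without replicate 1 or 4 after CGRP or replicate 1 or 3 after PBS at 8 h. Of 9 tested genes for serum response factor, its cofactors and relatives, 2 fell at 4 h and 1 at 8 h. Mef2c fell by 0.71 at 4 h (SE 0.16, adjusted p = 0.00314) and by 0.72 at 8 h (SE 0.16, adjusted p = 0.00606), and Mkl2 by 0.46 at 4 h (SE 0.09, adjusted p = 0.00138), by edgeR.

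Among 15 tested partners of the basic leucine zipper class, 1 rose at each time. Crem, which encodes repressors acting at cyclic AMP response elements, rose at 4 h from 13.2 ± 2.59 to 29.6 ± 2.49 CPM, a log2 fold change of 1.17 ± 0.17 (edgeR, adjusted p = 8.71e-05). At 8 h it was at 12.9 ± 2.38 CPM after PBS and 12.5 ± 2.51 CPM after CGRP, and the difference of the effects was called (-1.20 ± 0.25, adjusted p = 0.0187). Crem and Atf3 had this form in common: higher with CGRP at 4 h, lower at 8 h than at 4 h after CGRP, and a called difference between the times. Atf4, a stress response factor, was the 1 that rose at 8 h (0.44 ± 0.09, adjusted p = 0.00315).

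Known target genes of AP-1 had high medians in both CGRP comparisons. Of the 28 listed, 22 were tested. Their median log2 fold change was 0.90 at 4 h and 0.91 at 8 h, beside -0.00 and -0.02 over all genes, with 4 that rose and 2 that fell at 4 h and 7 that rose and none that fell at 8 h. Over all genes 7.84% rose and 8.37% fell at 4 h, and 5% rose and 3.67% fell at 8 h. The list holds genes that other factors also drive, and it was chosen with earlier results of these data known. Its medians and counts are therefore a description only, and AP-1 activity was not tested. At 4 h Gja1, the gap junction gene connexin 43, rose by 0.58 ± 0.12 (adjusted p = 0.00167) and Ptgs2, the prostaglandin synthase COX-2, by 1.43 ± 0.33 (adjusted p = 0.00756), while Vim, which encodes vimentin, fell by 0.35 (SE 0.08, adjusted p = 0.00616). Hbegf, a growth factor of the EGF family, rose at 4 h by 2.74 ± 0.73 (adjusted p = 0.0195), a call lost without replicate 4 after CGRP or replicate 2 or 3 after PBS at 4 h.

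At 8 h the target genes with the smallest p were Gja1 (0.63 ± 0.12, adjusted p = 0.00229), Plaur, the urokinase receptor (1.95 ± 0.41, adjusted p = 0.0106), Sphk1, sphingosine kinase (2.85 ± 0.61, adjusted p = 0.0129), and Timp1, a metalloproteinase inhibitor (3.08 ± 0.66, adjusted p = 0.0141), by edgeR. Timp1 was at 29.0, 52.1, 63.3 and 24.2 CPM after PBS and at 576, 155, 118 and 569.6 CPM after CGRP. Plaur was at 12.7, 15.1, 12.5 and 11.02 CPM after PBS and at 70.2, 39.2, 21.0 and 68.5 CPM after CGRP. As with Fosl1, replicates 1 and 4 after CGRP were the highest, replicate 2 the next and replicate 3 the lowest, in both genes. Without the 4 libraries with most genes detected none of the 22 was called at 8 h, as for Fosl1.

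**Figure D4:**
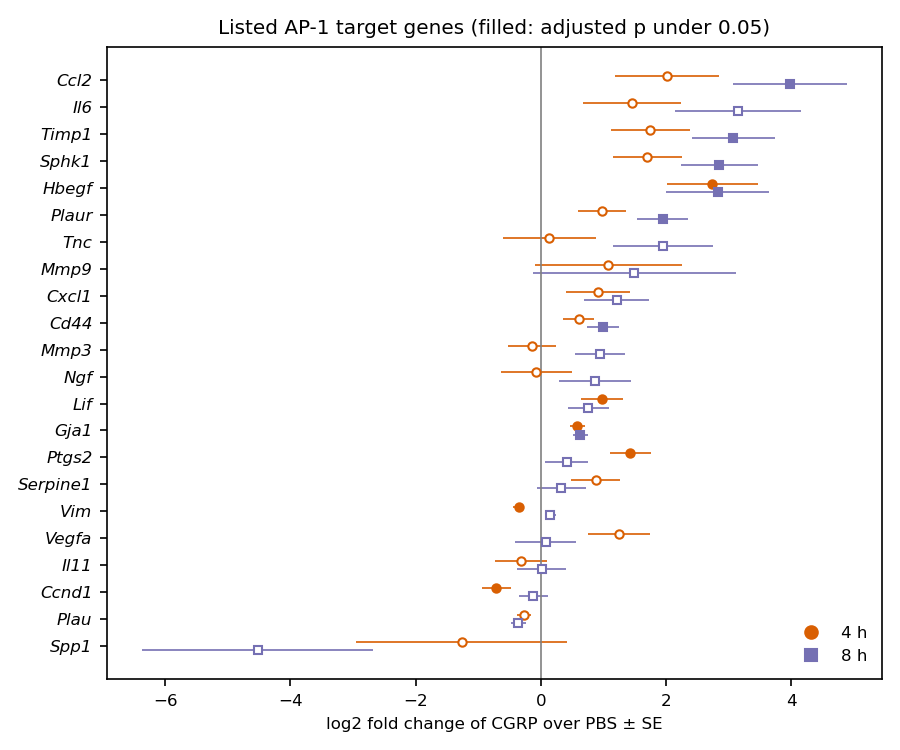
Log2 fold change of CGRP over PBS with its standard error (horizontal axis) for the 22 tested AP-1 target genes at 4 h (circles) and 8 h (squares), ordered by the value at 8 h. Filled symbols have an adjusted p under 0.05. At 8 h the 7 filled squares all lie to the right of 0.

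The 20 target genes of small MAF and NRF2 dimers showed no common direction: 2 rose and 1 fell at 4 h, and 3 rose and 2 fell at 8 h, with medians of -0.02 and 0.19. Pgd, an enzyme of the pentose phosphate pathway, rose at both times (0.67 ± 0.09, adjusted p = 4.75e-05, and 0.63 ± 0.09, adjusted p = 0.000323). Gstm1, a glutathione transferase, fell at both, by 0.45 (SE 0.09, adjusted p = 0.00133) and by 0.39 (SE 0.09, adjusted p = 0.00820), all by edgeR. Of the listed genes named for 8 h, Pgd alone was still called there without the 4 libraries with most genes detected (adjusted p = 0.0204), and the difference of the Crem effects had an adjusted p of 0.0854 without them. The heme oxygenase gene Hmox1, whose antioxidant elements are a textbook site of small MAF dimers, was not called with time after PBS (-1.74 ± 0.47, adjusted p = 0.124) or after CGRP (-1.57 ± 0.46, adjusted p = 0.0601).

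A list of 29 other early and heat shock genes known to rise when tissue is dissociated was read beside the AP-1 genes. At 4 h 9 rose with CGRP and 1 fell, with a median of 0.42, and at 8 h 4 rose, with a median of 0.24. Between 4 h and 8 h after CGRP 6 fell, with a median of -0.33, and the median with time after PBS was -0.12. Socs3, a feedback inhibitor of cytokine signalling, rose at 4 h by 1.07 ± 0.17 (adjusted p = 0.000357) and fell with time after CGRP by 1.06 (SE 0.17, adjusted p = 0.000794). Hspa8, a constitutive heat shock protein gene, went from 532 ± 35.3 to 948 ± 189 CPM at 4 h (0.83 ± 0.13, adjusted p = 0.000184). So 9 of the 29 rose where Atf3 and Mafk rose, at 4 h, beside 7.84% of all genes. With time after CGRP, where both fell, 6 of the 29 fell, beside 3.05% of all genes. At 8 h, where 4 rose beside 5% of all genes, Atf3 and Mafk were not called and their estimates were below 0. The list's part in their results was not tested.

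The genes most like each AP-1 gene in log2 CPM over the 16 libraries were sought among the 9822 genes whose mean reached 5 CPM, as a description. The points share groups and library depth. Fosl1 was most like Cxcl14 (Pearson r = 0.94), Hspa4 (0.94) and Sdc4 (0.93). Atf3 was most like Prss36 (0.90), Fas (0.88) and Ifi204 (0.85), Mafk like Hspbap1 (0.90), Ifi204 (0.87) and Gda (0.85), and Fos like Sat1 (0.91), Fas (0.86) and Agt (0.83). Fas thus stood beside both Fos and Atf3, and Ifi204 beside both Atf3 and Mafk. Jun was most like Fbxo34, Tor1b and Cdc123 (each 0.86), Junb like Btg2 (0.87), Cxcl1 (0.87) and Sssca1 (0.85), and Fosb like Cpz, Anxa3 and Heatr5a (each 0.83). For Fosl2, Jund and Maff the highest values were 0.82 (Il1rap), 0.78 (Psenen) and 0.80 (Fnbp4).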

How the data were processed

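RNA was sequenced in 16 libraries of polyadenylated RNA from 1000 sorted cells each, made with Nextera XT, which does not mark strand, and read as pairs of 25 bases, per the labels. The authors deposited raw read counts per gene, which they made with STAR 2.5.4 and featureCounts on mm10, per the submitters' processing notes. Their annotation, strand setting and treatment of multi-mapping reads are stated in none of the sources read. The counts were checked to be whole numbers, and no 2 replicates of a group were alike within sampling noise: over 24 pairs the chi-square was 6.52 to 22.7 times its degrees of freedom.

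Counts were fitted with edgeR 4.0.16 (R 4.3.3): filterByExpr, TMM scaling and quasi-likelihood fits to all 16 libraries with a mean for each group, with 12 residual degrees of freedom. Tests were two-sided, adjusted by the Benjamini-Hochberg method over 13949 genes, and called at an adjusted p under 0.05. CPM are TMM-scaled and given as mean ± SD (n = 4), log2 fold changes as value ± SE. Exon lengths and positions came from GENCODE M21 (GRCm38), and exons of all transcripts were merged. The fit was tested on simulated data with known changes. Alternatives were 3 other scalings, 2 other filters, DESeq2 1.42.0, voom of limma 3.58.1, a fit of only the groups compared, a replicate block and leaving out each library, with another added after seeing the data. Apart from the AP-1 genes, up to 4 called genes of a list with the smallest p were named for a comparison, or up to 2 where none was called, and 3 similar genes for each AP-1 gene. The values of 1 gene that this rule names are not reported here. Overlapping genes and defining markers were named after their values were seen. The AP-1 genes and the lists were chosen with earlier results of these data known.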

Additional observations from a re-analysis of the deposited data

Results flagged for a closer look

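In 4 of the 40 sets of 4 libraries (10 genes in 4 groups), 1 library stood apart from the other 3 by more than Dixon's 95% critical value, which chance gives in about 1 in 20 sets. Fos after PBS at 4 h was at 568 CPM in replicate 4, with the nearest library at 376 CPM. Jun after PBS at 8 h was at 675 CPM in replicate 2, with the nearest at 567 CPM. Jund after CGRP at 4 h was at 7.11 CPM in replicate 1, with the nearest at 4.84 CPM. Atf3 after CGRP at 4 h was at 33.4 CPM in replicate 4, with the nearest at 26.6 CPM and the lowest at 25.8 CPM, so the other 3 libraries were also above all PBS libraries at 4 h.

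The effect of CGRP on Atf3 differed between the times. The effect at 8 h minus the effect at 4 h was -1.17 on the log2 scale (edgeR, adjusted p = 0.0187), from 0.70 at 4 h to -0.47 at 8 h. It was called under 24 other settings of the fit, at adjusted p of 0.000872 to 0.0458, and without the 4 libraries with most genes detected (-1.43, adjusted p = 0.0312).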

How the results depend on the processing

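The number of AP-1 genes called stayed at 2 or 3 at 4 h, at 1 at 8 h and at 4 to 7 with time after CGRP under the other settings, apart from the one added after seeing the data. For the difference of the CGRP effects between times it was 1, or 2 with DESeq2, and with time after PBS 0, or 2 with no filter on low counts and with DESeq2. In that added setting, without the 4 libraries with most genes detected, it was 2, 0, 1, 0 and 4 for the 4 h, 8 h, difference, PBS and CGRP comparisons. All genes called then numbered 191 at 8 h in place of 1210, and 63 for the difference in place of 156, with fewer libraries fitted, and none of the AP-1 target genes and 0 of the early genes was called at 8 h. All genes called for the difference numbered 456 with no filter and 425 with DESeq2, and with time after PBS 422 with no filter, 321 with DESeq2 and 131 with only the groups compared in place of 72; the cause was not tested. Leaving out single libraries gave 1481 to 2245 genes at 4 h, 577 to 1297 at 8 h, 80 to 196 for the difference, 17 to 280 with time after PBS and 666 to 1014 with time after CGRP, 3 to 9 AP-1 target genes at 4 h and 4 to 8 at 8 h, and 5 to 12 early genes at 4 h and 0 to 6 at 8 h.

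Directions turned only for values that were not called. Fos at 4 h gave 0.016 with total counts only and 0.23 without the 4 libraries, and -0.11 to 0.16 leaving out single libraries. Jund at 4 h gave -0.0023 with upper-quartile scaling, and without the 4 libraries -0.27 at 8 h and -0.68 for the difference, where Jun at 8 h gave -0.0015 and Mafk with time after PBS 0.029. Leaving out single libraries, Jund gave -0.12 to 0.36 at 4 h, -0.084 to 0.28 at 8 h, -0.23 to 0.24 for the difference and -0.11 to 0.37 with time after PBS, Fosl2 -0.044 to 0.19 at 4 h and -0.19 to 0.044 with time after PBS, Maff -0.55 to 0.00028 at 8 h, and Fosl1 -0.019 to 0.79 with time after CGRP. With the replicate number as a block, 2, 1, 1, 0 and 5 AP-1 genes were called, as without it, and 2167, 1100, 159, 69 and 947 of all genes. Same-numbered libraries deviated together weakly at most (correlations of -0.03 to 0.09). The closest library of the other group had the same number in some cases and another number in the rest. The numbers were not taken to pair samples. Low counts limit Jund, Maff and, after PBS at 8 h, Fosl1, which had 9 to 15 counts per library there.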
